A study of Mus musculus with 6 samples.

Results

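Chemokines are small secreted proteins that direct the movement of white blood cells. The 10 genes described here, Ccl2, Ccl3, Ccl4, Ccl5, Ccl6, Ccl7, Ccl9, Cxcl1, Cxcl2 and Cxcl10, encode CC and CXC chemokines that macrophages make. They were taken by name from tables of 36333 genes, and all 10 were present. Their transcript levels were measured in mouse bone marrow derived macrophages by RNA sequencing of polyadenylated RNA. The 3 stearic acid samples were C57BL/6 macrophages given 100 µM of this saturated fatty acid for 24 h, and the 3 vehicle samples were C57BL/6 macrophages given an equal volume of ethanol for 24 h. All 6 cultures had first been grown from bone marrow for 7 days in 10 ng/mL of macrophage colony-stimulating factor and replated. The question addressed is which chemokine transcripts differ after exposure to the fatty acid. Since no label ties the replicates to different mice or dishes, a p-value here covers the spread among these 6 samples alone, and that spread may be technical.

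A chemokine acts by binding receptors of the G protein-coupled class on the cells it attracts. The CC group mainly draws monocytes, macrophages and T cells, the CXC members with a glutamate-leucine-arginine motif (Cxcl1 and Cxcl2) draw neutrophils, and Cxcl10 draws activated T cells. In macrophages, transcription of many of these genes is switched on by NF-kB after microbial or cytokine stimulation, and Cxcl10 in addition by interferon signalling through STAT and IRF factors. Their mRNAs are short-lived, and decay factors that bind AU-rich elements limit several of them.

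Levels are given in TPM, transcripts per 1e+06, which adjusts for gene length and library depth and is a share of each library. Differences are stearic acid minus vehicle on the log2(TPM + 1) scale, with the standard error (SE) and the adjusted p of limma, and a gene passed the test at an adjusted p under 0.05 over all 11551 genes tested. Recovered depth was 64.0 to 76.4 M reads or read pairs (M, 1e+06; which is not settled) per stearic acid library and 58.1 to 80.8 M per vehicle library. Summed over 8 macrophage markers, the level was 23111 to 28681 TPM with stearic acid, against 32508 to 33422 TPM with vehicle. Of these 8 markers 1 was higher and 4 were lower by the test. The part of this difference in the chemokine results was not tested. In bulk RNA, fewer cells of a type and less RNA of the marker genes per cell cannot be told apart. Markers of lymphoid cells (6 genes) summed to 0.159 to 0.477 TPM with stearic acid and 0.225 to 0.501 TPM with vehicle, with Cd3e, Nkg7 and Ncr1 at 0 in every library. The other marker lists stayed at or below 5.27 TPM in sum with stearic acid and 4.44 TPM with vehicle, apart from the neutrophil list given with Cxcl2.

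With stearic acid, Ccl3 and Cxcl2 rose, Cxcl10 fell, and the other 7 chemokines did not pass the test. The 2 calls of higher level among 10 members stand beside 12.8% of all tested genes called higher, and the 1 call of lower level beside 11.9% called lower. All 3 stearic acid libraries lay above all 3 vehicle libraries for Ccl3, Ccl9, Cxcl1 and Cxcl2, that is 4 of 10 members, against 22.8% of tested genes. The groups were separated in the other direction for Cxcl10, 1 of 10 members, against 21.7% of tested genes. The groups overlapped for the other 5 members, Ccl2, Ccl4, Ccl5, Ccl6 and Ccl7. Over 10 genes these counts are a description, and none of them is claimed to be particular to chemokines. The median difference over the 10 members was 0.26, beside -0.03 over all tested genes.

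**Figure D1:**
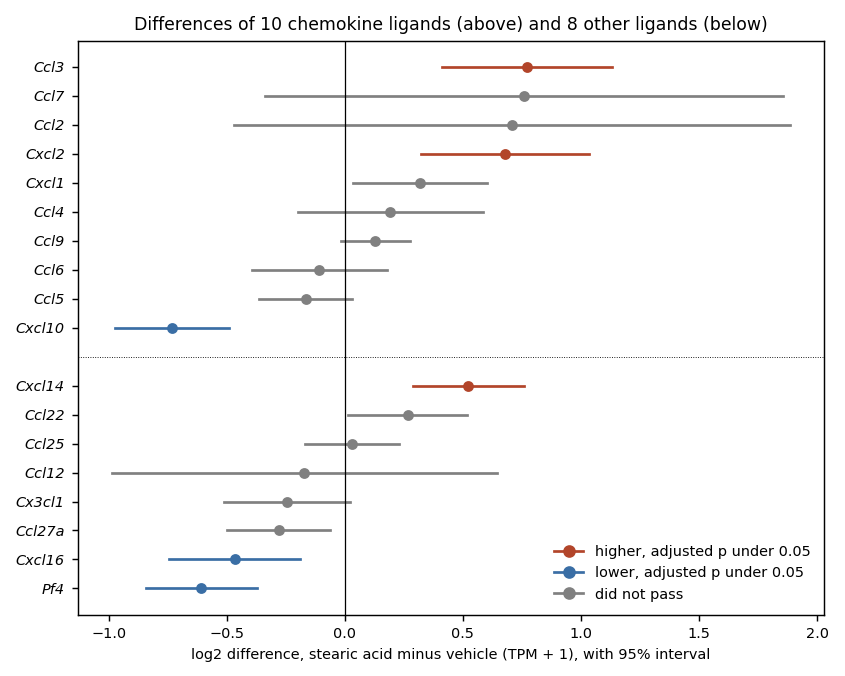
Difference of each chemokine between stearic acid and vehicle on the log2(TPM + 1) scale (x axis) with its 95% interval, for the 10 members (upper block) and 8 other tested chemokine ligands (lower block). Red marks genes called higher, blue genes called lower and grey genes that did not pass. Ccl3 (0.77) and Cxcl2 (0.68) lie to the right of 0, Cxcl10 (-0.73) lies to the left, and the intervals of Ccl2 and Ccl7 are the widest of the members.

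Cxcl10, also called IP-10, is the T cell attractant that binds CXCR3, and it was the member with the clearest difference. It lies on chromosome 5 at 92346638 to 92348889 (GRCm38). Its level was 35.6, 43.5 and 37.4 TPM in stearic acid replicates 1, 2 and 3, against 68.5, 70.8 and 56.5 TPM in vehicle replicates 1, 2 and 3. Every stearic acid library lay below every vehicle library. The mean was 38.9 ± 4.15 TPM with stearic acid and 65.2 ± 7.69 TPM with vehicle (SD, n = 3 each). The difference was -0.73 (SE 0.11, 95% interval -0.97 to -0.49, adjusted p = 0.0040 by limma), a fold of 0.602. Cxcl10 passed the test in all 16 alternative analyses that were run, with differences of -0.83 to -0.66 and adjusted p of 3.3e-07 to 0.041. The smallest adjusted p came with library weights, which rested on stearic acid replicate 3 (8.16) and vehicle replicate 1 (4.05). When 1 library was left out, the adjusted p was 4.0e-05 to 0.041. Part of the Cxcl10 transcript, 84 of 1516 windows of 50 bases (5.54%), also occurs in transcripts of the Art3 gene, which runs on the opposite strand, and the strand rule of the counting is not given in the sources used here.

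Upstream sequences were available in the RefSeq promoter table (GRCm38.p6) for 6 of the 10 members. Those of Cxcl10, the member that fell, and of Ccl3 and Cxcl2, the members that rose, are shown with that of Cxcl1, the close relative and chromosomal neighbour of Cxcl2. Each is the 250 bases before the annotated start, 5′ to 3′ on the strand of the gene, and capitals mark matches to motifs searched on both strands: GGGNNNNNCC for NF-kB, GAAANNGAAA for the interferon-stimulated response element, and TGANTCA for AP-1. The positions are chr5:92348890-92349139 (minus strand) for Cxcl10, chr11:83649379-83649628 (minus strand) for Ccl3, chr5:90903649-90903898 (plus strand) for Cxcl2 and chr5:90890995-90891244 (plus strand) for Cxcl1.
Cxcl10: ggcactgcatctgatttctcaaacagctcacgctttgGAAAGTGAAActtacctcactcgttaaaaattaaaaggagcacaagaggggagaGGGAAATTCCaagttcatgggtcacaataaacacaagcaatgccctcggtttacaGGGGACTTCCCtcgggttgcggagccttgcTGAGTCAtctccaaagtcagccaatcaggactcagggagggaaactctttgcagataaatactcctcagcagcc
Ccl3: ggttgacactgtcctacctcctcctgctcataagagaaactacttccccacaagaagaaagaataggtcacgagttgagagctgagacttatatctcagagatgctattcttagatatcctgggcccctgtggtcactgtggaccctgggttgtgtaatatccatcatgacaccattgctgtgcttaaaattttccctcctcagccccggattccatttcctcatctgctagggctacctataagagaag
Cxcl2: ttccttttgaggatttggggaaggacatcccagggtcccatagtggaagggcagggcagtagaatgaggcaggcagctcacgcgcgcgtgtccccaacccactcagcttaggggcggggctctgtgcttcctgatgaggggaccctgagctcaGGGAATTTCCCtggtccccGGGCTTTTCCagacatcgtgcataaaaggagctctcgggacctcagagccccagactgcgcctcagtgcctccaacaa
Cxcl1: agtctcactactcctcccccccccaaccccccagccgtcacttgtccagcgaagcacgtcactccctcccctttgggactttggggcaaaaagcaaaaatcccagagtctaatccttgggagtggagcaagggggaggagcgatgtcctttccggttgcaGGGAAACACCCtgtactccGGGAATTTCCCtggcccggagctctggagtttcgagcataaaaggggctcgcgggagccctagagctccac

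The Cxcl10 sequence holds GAAAGTGAAA at 213 to 204 bases before the start. A match to that response element pattern is in 2.98% of 32851 RefSeq promoters and in 1 of the 6 member promoters. It also holds the NF-kB matches GGGAAATTCC (159 to 150 bases before the start) and GGGACTTCCC (103 to 94), which overlaps the match GGGGACTTCC, and the AP-1 match TGAGTCA (74 to 68). NF-kB matches of this loose form are common, in 45.8% of all promoters and in 4 of the 6 member promoters (Ccl9, Cxcl1, Cxcl2 and Cxcl10). The AP-1 pattern is in 6.75% of all promoters and in 2 of the 6 (Ccl9 and Cxcl10). Cxcl1 and Cxcl2 share GGGAATTTCCCTGG, 14 bases that include the NF-kB match GGGAATTTCC, at 71 bases before the start in Cxcl1 and 97 in Cxcl2. That run was picked as the longest that both sequences hold, so its presence in both was fixed by the choice. Among the 32851 promoters it was found in 2, those of these same genes. Each of them has a further NF-kB match nearby, GGGAAACACC in Cxcl1 and GGGCTTTTCC in Cxcl2. A match is a description of letters and was not tied to any measured binding here.

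Cxcl2, also known as MIP-2, and Cxcl1, known as KC, both attract neutrophils through CXCR2. Cxcl2 (chromosome 5, 90903899 to 90905938) had 7.65, 12.8 and 8.48 TPM in stearic acid replicates 1, 2 and 3, against 5.23, 5.50 and 5.80 TPM in vehicle replicates 1, 2 and 3. All stearic acid libraries were above all vehicle libraries, and replicate 2 of stearic acid was the highest. The mean was 9.63 ± 2.74 TPM with stearic acid and 5.51 ± 0.286 TPM with vehicle (SD, n = 3 each), and Cxcl2 rose by 0.68 (SE 0.16, 95% interval 0.32 to 1.03, adjusted p = 0.019). The call was lost when any 1 vehicle library was left out (adjusted p = 0.062, 0.074 and 0.070 without vehicle replicate 1, 2 and 3) and with no filter on low values (adjusted p = 0.079). The Cxcl2 transcript shares 61 of 1859 windows (3.28%) with Cxcl3. Summed over 9 neutrophil markers, the level was 6.40 to 7.22 TPM with stearic acid and 2.50 to 4.75 TPM with vehicle. Of these markers S100a8 alone reached the filter on low values and was higher, while Retnlg was at 0 in every library. The part of these transcripts in the Cxcl2 and Ccl3 results was not tested.

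Cxcl1 (chromosome 5, 90891245 to 90893121) was the least abundant member, with 20, 41 and 30 recovered reads in stearic acid replicates 1, 2 and 3 and 21, 24 and 12 in vehicle replicates 1, 2 and 3. Its level was 0.949, 1.56 and 1.24 TPM with stearic acid, against 0.793, 0.942 and 0.658 TPM with vehicle. The groups did not overlap, but the counting intervals of the lowest stearic acid library and the highest vehicle library did, 0.579 to 1.46 TPM for stearic acid replicate 1 and 0.604 to 1.40 TPM for vehicle replicate 2 (exact Poisson 95%, counting error only). The difference was 0.32 (SE 0.13, adjusted p = 0.093 by limma) and did not pass. Adding 1 TPM before the log understates changes at such low levels. With 0.1 TPM added instead, the difference was 0.58 for Cxcl1 (adjusted p = 0.091 by limma), still not passing, and 0.76 for Cxcl2. Cxcl1 entered the test only through the stearic acid group, since its vehicle mean was 0.797 TPM, under the filter of 1 TPM that was set on the mean of all libraries.

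Ccl3 and Ccl4, also called MIP-1α and MIP-1β, are neighbouring genes on chromosome 11 whose products attract monocytes and T cells, and Ccl3 binds CCR1. Ccl3 (83647843 to 83649378) had 59.2, 101 and 75.7 TPM in stearic acid replicates 1, 2 and 3, against 43.1, 44.7 and 46.0 TPM in vehicle replicates 1, 2 and 3. Every stearic acid library was above every vehicle library, and replicate 2 of stearic acid was the highest. Means were 78.6 ± 21.0 TPM with stearic acid and 44.6 ± 1.46 TPM with vehicle (SD, n = 3 each). Ccl3 rose by 0.77 (SE 0.16, 95% interval 0.41 to 1.13, adjusted p = 0.013). The call was lost without vehicle replicate 2 (adjusted p = 0.067), without vehicle replicate 3 (0.061) and with no filter on low values (0.064). Ccl4 (83648624 to 83664683) had 17.7, 30.2 and 24.5 TPM with stearic acid and 20.1, 23.6 and 18.2 TPM with vehicle. Its groups overlapped, with the lowest and the highest library both among the stearic acid samples, and it did not pass (difference 0.19, SE 0.17, 95% interval -0.20 to 0.58, adjusted p = 0.42). The RefSeq spans of Ccl3 and Ccl4 overlap, so reads in the overlap cannot be assigned with certainty, although their GENCODE transcripts share no window of 50 bases.

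The gap between Ccl3 and Ccl4 within a library was 1.69, 1.71 and 1.59 on the log2 scale in stearic acid replicates 1, 2 and 3, against 1.06, 0.89 and 1.29 in vehicle replicates 1, 2 and 3. It was thus wider in every stearic acid library than in every vehicle library, by 0.58 on average. An exact two-sided permutation test over 20 assignments gave p = 0.1, the smallest it can give, and 0.2 after adjustment over the 4 gene pairs compared. The gap between Cxcl2 and Cxcl1 was also separated, 2.22 ± 0.18 with stearic acid and 1.86 ± 0.16 with vehicle (SD, n = 3 each), with the same p and adjusted p. With a pseudocount of 0.1 TPM the difference of this gap was 0.18 instead of 0.36 (exact permutation p = 0.4), and over the left-out libraries it was 0.26 to 0.45. The gap between Ccl6 and Ccl9 (difference -0.24, p = 0.3, adjusted p = 0.4) and that between Ccl7 and Ccl2 (difference 0.05, p = 0.8, adjusted p = 0.8) overlapped between groups by the same exact permutation test.

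Ccl5, known as RANTES, attracts T cells and monocytes, and it was the second most abundant member. It lies on chromosome 11 at 83525778 to 83530518. Its level was 133, 107 and 122 TPM in stearic acid replicates 1, 2 and 3, against 129, 138 and 138 TPM in vehicle replicates 1, 2 and 3. The groups overlapped through stearic acid replicate 1, which lay above vehicle replicate 1. The difference was -0.17 (SE 0.09, 95% interval -0.36 to 0.03, adjusted p = 0.18), so a fall larger than 0.36 lies outside the interval.

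Ccl6 and Ccl9 are chemokines of rodents that bind CCR1 and are made abundantly by myeloid cells. Ccl9 (chromosome 11, 83572917 to 83578636) was the most abundant member, with 419, 425 and 434 TPM in stearic acid replicates 1, 2 and 3 and 366, 397 and 407 TPM in vehicle replicates 1, 2 and 3. Its stearic acid libraries all lay above its vehicle libraries, but the difference was small, 0.13 (SE 0.06, 95% interval -0.02 to 0.28), and did not pass (adjusted p = 0.17). Of its transcript, 59 of 2957 windows (2.00%) occur in other genes. Ccl6 (chromosome 11, 83587886 to 83593087) had 47.8, 32.2 and 42.2 TPM with stearic acid and 42.2, 44.6 and 43.5 TPM with vehicle. The stearic acid libraries spread to both sides of the vehicle libraries, and the difference was -0.11 (SE 0.13, 95% interval -0.39 to 0.18, adjusted p = 0.54).

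Ccl2 and Ccl7, known as MCP-1 and MCP-3, bind CCR2 and draw monocytes out of the bone marrow into tissue. Ccl2 (chromosome 11, 82035577 to 82037452) had 25.8, 154 and 75.3 TPM in stearic acid replicates 1, 2 and 3, against 41.6, 54.4 and 29.8 TPM in vehicle replicates 1, 2 and 3. Stearic acid replicate 1 was below every vehicle library and replicates 2 and 3 were above every one, so the groups overlapped. The lowest and highest of these rested on 459 and 3412 recovered reads. Ccl7 (chromosome 11, 82045712 to 82047525) had 3.51, 20.8 and 7.96 TPM with stearic acid and 4.50, 7.11 and 3.07 TPM with vehicle. Stearic acid replicate 2 was again the highest library and replicate 1 lay within the vehicle range. Neither passed, at a difference of 0.71 for Ccl2 (SE 0.52, 95% interval -0.47 to 1.88, adjusted p = 0.33) and 0.76 for Ccl7 (SE 0.49, 95% interval -0.34 to 1.86, adjusted p = 0.27). The coefficient of variation was 75.9% with stearic acid and 29.4% with vehicle for Ccl2, and 83.5% with stearic acid and 41.9% with vehicle for Ccl7, the widest of the members in each group. Fibroblasts also make Ccl2 and Ccl7, and 6 fibroblast markers, none of which reached the filter, summed to 0.959, 1.10 and 2.74 TPM in stearic acid replicates 1, 2 and 3 and to 3.73, 2.14 and 1.91 TPM in vehicle replicates 1, 2 and 3. The part of these transcripts in the Ccl2 and Ccl7 results was not tested.

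**Figure D2:**
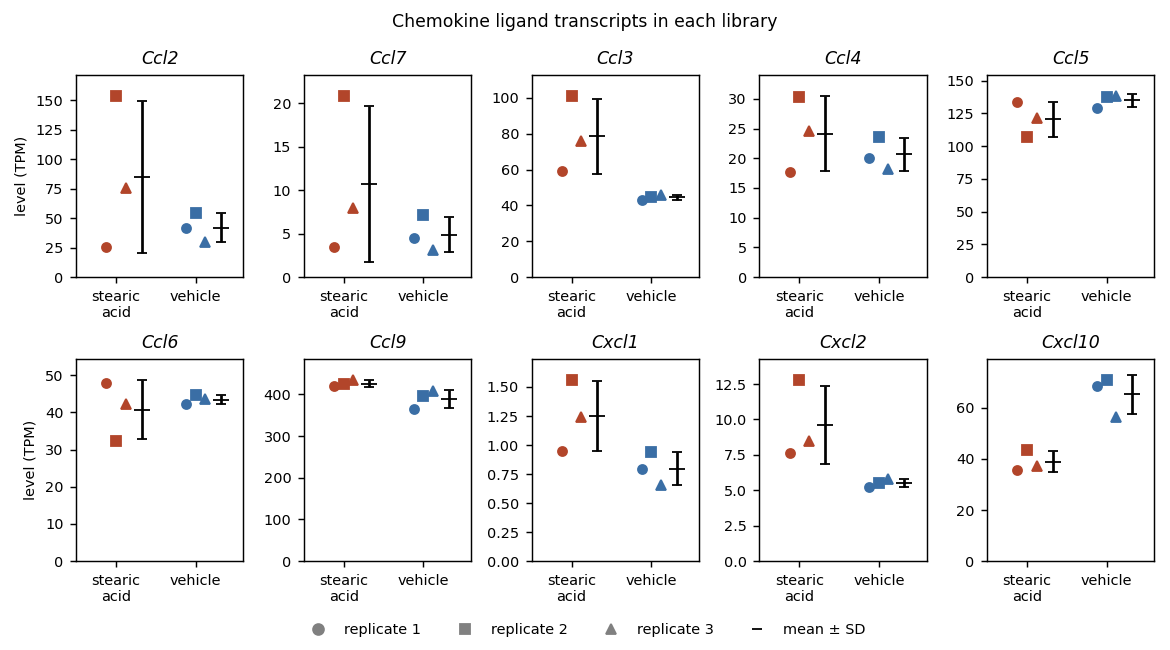
Level of each of the 10 chemokines in TPM (y axis, linear and from 0) in every library, with a symbol for each replicate number, stearic acid in red at the left, vehicle in blue at the right, and the mean ± SD of each group in black (n = 3). The groups are separated for Cxcl10 downward and for Ccl3, Ccl9, Cxcl1 and Cxcl2 upward, and the stearic acid libraries of Ccl2 span 25.8 to 154 TPM.

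The stearic acid libraries did not move alike. Relative to the vehicle mean, replicate 1 was -0.64 for Ccl2 and -0.33 for Ccl7, replicate 2 was 1.89 and 1.94, and replicate 3 was 0.87 and 0.66, all on the log2 scale. For Ccl3 the same deviations were 0.40, 1.16 and 0.75 in replicates 1, 2 and 3, and for Cxcl2 they were 0.41, 1.08 and 0.54. For Cxcl10 they were -0.85, -0.57 and -0.78. Replicate 2 was thus the highest stearic acid library of Ccl2, Ccl3, Ccl4, Ccl7, Cxcl1, Cxcl2 and Cxcl10 and the lowest of Ccl5 and Ccl6. Over all called genes, the median size of the deviation was also largest in replicate 2, at 0.285, 0.601 and 0.425 in replicates 1, 2 and 3. Replicate 2 was the farthest from the vehicle mean for Ccl2, Ccl3 and Cxcl2, whereas for Cxcl10 it was the nearest.

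**Figure D3:**
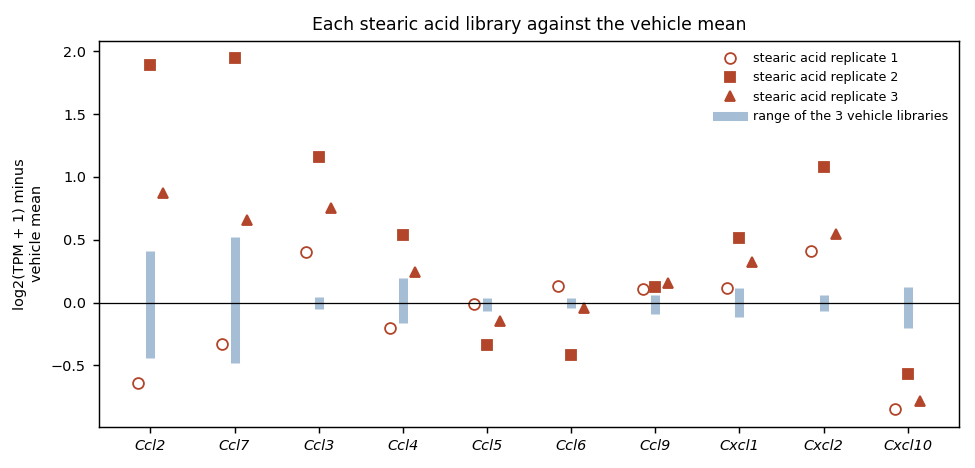
Deviation of each stearic acid library (red symbols) from the vehicle mean on the log2(TPM + 1) scale (y axis) for the 10 chemokines, with the range of the 3 vehicle libraries as a blue bar. Stearic acid replicate 2 stands highest for Ccl2 (1.89) and Ccl7 (1.94), and all 3 stearic acid libraries of Cxcl10 lie below 0.

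The calls rested on single libraries to different degrees. Without stearic acid replicate 1, 6 members were called higher and 2 lower, beside 19.2% and 24.1% of all tested genes in that analysis. Those 6 are Ccl2 (1.38, adjusted p = 0.00030), Ccl7 (1.30, adjusted p = 0.0022), Ccl4 (0.39, 0.012), Cxcl1 (0.42, 0.013), Ccl3 and Cxcl2, and the 2 are Ccl5 (-0.24, 0.025) and Cxcl10. Without stearic acid replicate 2, the difference shrank to 0.12 for Ccl2 (adjusted p = 0.83) and 0.17 for Ccl7 (adjusted p = 0.70), while Cxcl10 was at -0.81. The number of members called higher by limma was 0 without vehicle replicate 2 or 3 (3 and 2 members at an unadjusted p under 0.05) and 1, Ccl3, without vehicle replicate 1. Of all tested genes 3.32% were called higher without vehicle replicate 2, 4.21% without vehicle replicate 3 and 5.92% without vehicle replicate 1. The differences themselves stayed at 0.77 and 0.79 for Ccl3 and 0.68 and 0.71 for Cxcl2 without vehicle replicates 2 and 3. They moved more with the stearic acid libraries. Without stearic acid replicate 2 they were 0.58 for Ccl3 and 0.48 for Cxcl2, and without stearic acid replicate 1 they were 0.96 and 0.81. With no filter on low values the number of members called higher was also 0 (3 members at an unadjusted p under 0.05), beside 3.11% of 21632 genes. Cxcl10 was then the only member called, beside 1.64% called lower. By voom, limma's method for counts, on the recovered reads, 2 were called higher and 1 lower, beside 15.4% and 14.6% of all genes.

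**Figure D4:**
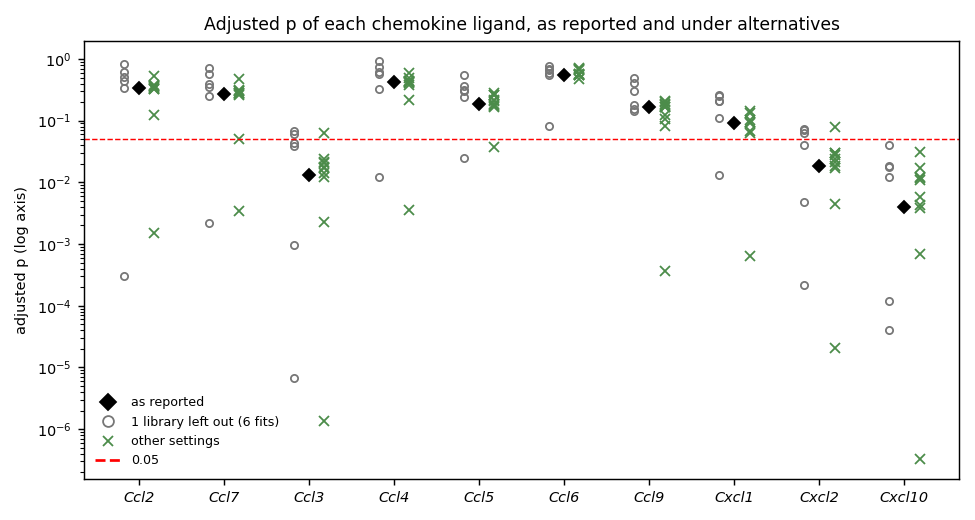
Adjusted p of each chemokine (log axis) as reported (black diamonds), in the 6 analyses that each leave out 1 library (open circles) and in the other settings (green crosses), with a red line at 0.05. All symbols of Cxcl10 lie under the line, whereas those of Ccl3 and Cxcl2 reach 0.067 and 0.079.

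By level, Ccl9 stood first and Cxcl1 last in both groups. With stearic acid the order of mean TPM was Ccl9, Ccl5, Ccl2, Ccl3, Ccl6, Cxcl10, Ccl4, Ccl7, Cxcl2 and Cxcl1, and with vehicle it was Ccl9, Ccl5, Cxcl10, Ccl3, Ccl6, Ccl2, Ccl4, Cxcl2, Ccl7 and Cxcl1. Among neighbours in the stearic acid order, the library ranges overlapped for Ccl5 with Ccl2, Ccl2 with Ccl3, Ccl6 with Cxcl10, Ccl4 with Ccl7 and Ccl7 with Cxcl2. In the vehicle order they overlapped for Ccl3 with Ccl6, Ccl6 with Ccl2 and Cxcl2 with Ccl7. Among all 36333 genes, Cxcl10 ranked 4224th with stearic acid and 2649th with vehicle, and Ccl3 ranked 2199th with stearic acid and 3752nd with vehicle. The 10 members summed to 751, 927 and 828 TPM in stearic acid replicates 1, 2 and 3, against 721, 786 and 749 TPM in vehicle replicates 1, 2 and 3. Ccl9 made up 45.8% to 55.8% of that sum with stearic acid and 50.5% to 54.4% with vehicle, and Ccl2 made up 3.43% to 16.6% with stearic acid and 3.98% to 6.92% with vehicle.

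Likeness of pattern was measured as the root mean square difference of centred log2 values over the 6 libraries, which share their depth and treatment and so are no independent points. Among the members, Ccl3 and Cxcl2 were closest (0.0786), followed by Ccl5 with Ccl6 (0.0795), Ccl4 with Cxcl1 (0.127) and Ccl2 with Ccl7 (0.162). The measure used log2(TPM + 1), which shrinks the pattern of low genes such as Cxcl1, so its closeness to Ccl4 depends on that scale. With 0.1 TPM added instead of 1, the treatment difference was 0.58 for Cxcl1 and 0.20 for Ccl4. Among 9557 genes of at least 5 TPM that are no members, those closest to Ccl3 were Phgdh (0.0535), Tma16 (0.0578) and Hspa9 (0.0588). Those closest to Cxcl10 were Slamf9 (0.103), Cd40 (0.131) and Cmpk2 (0.157).

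Of 27 other chemokine ligands listed, 26 were in the tables and 8 reached the filter, while 8 were at 0 in every library and Cxcl11 was not analysed here. By the test 1 was higher, 2 were lower and 5 did not pass, with a median difference of -0.21. Over all tested genes, 12.8% were higher, 11.9% were lower and the median difference was -0.03. Cxcl14, also called BRAK, rose to 86.2 ± 10.9 TPM with stearic acid, against 59.5 ± 4.71 TPM with vehicle (difference 0.52, adjusted p = 0.012). Pf4, also called Cxcl4 and best known from platelets, fell to 86.9 ± 10.2 TPM with stearic acid, against 133 ± 13.7 TPM with vehicle (difference -0.61, adjusted p = 0.0069). Cxcl16, a membrane-bound ligand of CXCR6, fell to 335 ± 63.8 TPM with stearic acid, against 458 ± 23.5 TPM with vehicle (difference -0.47, adjusted p = 0.027). All 3 calls were on 3 libraries a group, and Pf4 alone passed in every alternative run, whereas Cxcl14 was lost with no filter (adjusted p = 0.052) and without vehicle replicate 2 (0.061). Cxcl16 was lost with no filter (0.095), without stearic acid replicate 3 (0.080) and without any 1 vehicle library (0.076 to 0.11). The 5 that did not pass were Ccl22 (difference 0.27, adjusted p = 0.11, with a vehicle mean of 0.870 TPM, under the filter), Ccl27a (-0.28, 0.063), Cx3cl1 (-0.25, 0.15), Ccl12 (-0.17, 0.74) and Ccl25 (0.03, 0.82). Cxcl3, a close relative of Cxcl2, stayed below the filter, with 0.311, 0.820 and 0.583 TPM in stearic acid replicates 1, 2 and 3 and 0.035, 0.037 and 0.257 TPM in vehicle replicates 1, 2 and 3. It was named after its values were seen, and its shared windows with Cxcl2 limit the assignment of reads to either gene.

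Of 10 listed genes for receptors of these chemokines and relatives of such receptors, 6 reached the filter. Of these 2 were higher, 3 were lower and 1 did not pass, beside 12.8% of all tested genes called higher and 11.9% called lower. Ccr1, the receptor of Ccl3, Ccl6 and Ccl9, rose to 10.5 ± 1.53 TPM with stearic acid, against 6.63 ± 0.293 TPM with vehicle (difference 0.58, adjusted p = 0.0089). Ccr2, the receptor of Ccl2 and Ccl7, fell to 8.62 ± 3.94 TPM with stearic acid, against 20.9 ± 2.79 TPM with vehicle (difference -1.26, adjusted p = 0.012). Ccrl2, an atypical receptor, was the other that rose (0.43), and Ccr3, a receptor of Ccl5 and Ccl7 (-0.71), and Ccr1l1, a relative of Ccr1 (-0.80), also fell. The rise of Ccr1 was lost without vehicle replicate 2 (adjusted p = 0.054) or 3 (0.051), and the fall of Ccr2 was lost in those same cases and with no filter (adjusted p = 0.061 to 0.067). The calls of Ccrl2, Ccr3 and Ccr1l1 held in every alternative in which they were tested. Ccr1l1 averaged 0.501 TPM with stearic acid and 1.62 TPM with vehicle, so it entered the test only through the vehicle group. Ccr2 was named after its values were seen. Cxcr3, the receptor of Cxcl10, did not pass (-0.08, adjusted p = 0.43).

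Among 14 tested genes of the NF-kB pathway, 3 were higher, 2 were lower and 9 did not pass, with a median difference of 0.07. For this and the following lists, the shares over all tested genes were 12.8% higher and 11.9% lower, with a median difference of -0.03. Nfkbib (0.57) and Tnfaip3 (0.51), which restrain the pathway, and Ikbkg (0.36), a kinase subunit, rose, and Nfkbiz (-0.56), a nuclear co-regulator, and Nfkb1 (-0.28), which encodes the p50 subunit, fell. Ikbkg was named after its value was seen, and its call ended without stearic acid replicate 3, vehicle replicate 1 or vehicle replicate 2 (adjusted p = 0.055 to 0.063). The rise of Tnfaip3 was lost without vehicle replicate 2 (adjusted p = 0.057), and the fall of Nfkb1 was lost in 7 alternatives. Of 10 tested genes that link interferon to STAT factors, a pathway that induces Cxcl10, 5 were lower and 5 missed the threshold (median difference -0.28). By limma 0 were higher, also by voom and at an unadjusted p under 0.05. The part of these genes in the Cxcl10 result was not tested. Stat2, a signal carrier of the type I interferon receptor, fell to 63.9 ± 10.1 TPM with stearic acid, against 91.0 ± 4.38 TPM with vehicle (difference -0.51, adjusted p = 0.014). Irf7, a transcription factor of interferon genes, fell to 153 ± 27.9 TPM with stearic acid, against 219 ± 7.05 TPM with vehicle (difference -0.53, adjusted p = 0.016). The Stat2 call ended with no filter and when vehicle replicate 2 or 3 was left out (adjusted p = 0.060 to 0.072). The Irf7 call ended with no filter and without stearic acid replicate 3 or any 1 vehicle library (adjusted p = 0.055 to 0.068). Of 5 inducing cytokines, Tnf alone reached the filter, with 37.2, 78.6 and 61.0 TPM in stearic acid replicates 1, 2 and 3 against 43.6, 41.2 and 38.9 TPM in vehicle replicates 1, 2 and 3, and it did not pass (difference 0.44, adjusted p = 0.16). Of 8 tested genes of mRNA decay and stability, Zfp36l1 fell (-0.62, adjusted p = 0.042) and 7 did not pass. The Zfp36l1 call ended in 6 alternatives (adjusted p = 0.051 to 0.16).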

How the data were processed

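Polyadenylated RNA of 3 stearic acid and 3 vehicle macrophage samples was sequenced with a stranded kit, per the labels' protocols. The authors deposited a table per library with a TPM and an RPKM value per gene, per the file headers. The submitters' processing notes name DRAGEN, version not given, with GRCm38 and mm10. Neither the annotation nor the counting rule is stated in those sources. Of the gene numbers, 35337 (97.3%) matched RefSeq, which gave coordinates.

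The design had assumed counts, and its fallback for TPM was used. Limma 3.58.1 (R 4.3.3) with a trended prior was fitted to log2(TPM + 1), which understates changes of low genes, for the 11551 genes averaging 1 TPM or more. P-values were adjusted by Benjamini-Hochberg, at a threshold of 0.05. Whole reads were recovered from RPKM steps for 99.96% of these genes, within 0.02 reads in every library. The gene lengths were chosen to make the reads whole, so lengths and reads are known only up to a common factor. Depth was 64.0, 76.4 and 71.6 M (M, 1e+06) for stearic acid and 80.8, 75.3 and 58.1 M for vehicle. 1 TPM is 19.1 to 27.7 reads per kilobase, and intervals cover counting error only. Voom on these reads was an alternative chosen after seeing the data. The fit was tested on simulated data. Gene pairs were compared with exact permutation tests.

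The members, lists and rule for named genes were chosen with earlier results of these data known. The rule names all members, the other ligands that reached the filter, the 2 called genes of smallest p per direction in each receptor or regulator list, and the 3 genes nearest in pattern to the called member of smallest p in each direction. Cxcr3 and Tnf were added after their values were seen. Some listed receptor and regulator genes are not reported here and were left out of the list counts. Whether replicate numbers pair the samples is not known from the labels, and the reported fit did not pair them. Scripts also used Python 3.11.15.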

Additional observations from a re-analysis of the deposited data

How the results depend on the processing

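Of all tested genes, 2856 were called as reported. With no filter on low values 1027 were called, with library weights 7651, and 550 to 5010 when 1 library was left out. Of 11551 tested genes, 1482 were called higher and 1374 lower as reported, against 3385 higher and 4266 lower with library weights. With no filter 672 of 21632 genes were called higher and 355 lower. With 1 library left out, 384 to 2223 of 11551 genes were called higher and 142 to 2787 lower. Among the 10 chemokines, 2 were called higher as reported, but 0 with no filter, 7 with library weights and 0 to 6 when 1 library was left out. 1 was called lower as reported, but 2 with library weights and 1 to 2 when 1 library was left out. The weights rested on stearic acid replicate 3 (8.16) and vehicle replicate 1 (4.05). Of the other ligands, 1 was called higher as reported, against 0 with no filter, 2 with weights and 0 to 1 without 1 library, and 2 were called lower as reported, against 1 with no filter and 1 to 3 without 1 library. Of receptors and regulators, 5 were called higher as reported, against 10 with weights and 2 to 7 without 1 library, and 11 were called lower as reported, against 4 with no filter, 19 with weights and 3 to 14 without 1 library. The share of calls that were higher was 51.9% as reported, 65.4% with no filter, 60.5% with RPKM, 55.6% with median-of-ratios scaling, 48.6% with quantile normalization and 44.2% with weights. Leaving out stearic acid replicate 1 gave 44.4%, leaving out vehicle replicate 2 gave 69.8% and leaving out vehicle replicate 3 gave 77.4%. The cause of these changes was not tested.

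The gap between Ccl7 and Ccl2, 0.05 as reported, reversed to -0.071 with RPKM and to -0.078 without stearic acid replicate 1, in a range of -0.078 to 0.18 over the left-out libraries. Ccl6 reversed to 0.048 without stearic acid replicate 2 (range -0.23 to 0.048 over the left-out libraries), Ccl12 to 0.24 without stearic acid replicate 1 and 0.03 without vehicle replicate 2 (range -0.51 to 0.24), and Ccl25 to -0.070 with weights and -0.016 without vehicle replicate 2 (range -0.016 to 0.078). Samples of the same replicate number correlated in their deviations at 0.07, 0.29 and 0.04 for numbers 1, 2 and 3. Those of different numbers gave -0.32 to 0.27. With 3 libraries a group these values cannot decide whether the numbers mark pairs, and the reported fit left pairing out. With the replicate block 3638 genes were called, 2 chemokines higher and 1 lower, as reported. Over the named genes, 420 comparisons with alternatives kept their call, 44 lost it, 16 gained one and 5 reversed. With 3 libraries a group and TPM values, small differences of low genes such as Cxcl1 were not resolved.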
